A study of Mus musculus with 58 samples.

Results

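Chromatin RNA-seq (ChrRNA-seq) libraries from 2 clones asked what acute loss of PCGF3 and PCGF5 does to the silencing that remains 1 day after Xist induction in mouse ES cells whose SPEN protein carries a mutated SPOC domain. The libraries were selected by their titles as PCGF35_SPOC ES cells on day 1 (d1), with dTAG-13 (dTAG) or without it (ctrl), from clones F10 and F6, and they are 4 of the 58 libraries of the series. All 4 came from female hybrid cells with a Mus musculus domesticus (Dom) and a castaneus (Cast) X chromosome, in which Xist on the Dom X is under a doxycycline-inducible promoter and the endogenous PCGF3 and PCGF5 proteins are fused to the FKBP12 F36V degron. Doxycycline was given at 1 ug/mL on d1 in both groups, and the dTAG groups had received dTAG-13 from 12 h earlier, at a concentration that the labels state as 100 uM. The same clones before doxycycline (d0, with and without dTAG-13) served as the background. F10 and F6 are clones of a single engineered line, so the n of 2 per group is the number of clones. The paper reports that some F6 cells were XO, and that this clone was sub-cloned ahead of ChrRNA-seq. The gene-wise fits remove the difference between the clones by a clone term. Their p-values measure the variation that remains among the ES libraries fitted, which the allelic fit shares over genes.

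Xist RNA coats the chromosome that produces it. Its A-repeat binds SPEN, whose SPOC domain contacts the NCoR/SMRT-HDAC3 corepressors, and its B/C-repeat region recruits variant PRC1 complexes built on PCGF3 or PCGF5, which ubiquitylate histone H2A and lead on to PRC2 and H3K27me3. ChrRNA-seq sequences RNA still bound to chromatin, so it reads unspliced and ongoing transcription more than stable mRNA. Silencing was read as the allelic ratio, the Dom fragments of a gene divided by its Dom plus Cast fragments, for the X-linked genes of the deposited ratio table (the ratio-table genes, 3 groups of 82 when ordered by a property). A ratio near 0.5 means equal output of both X chromosomes. A lower ratio means less output of the X that carries inducible Xist relative to the other X.

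The 4 libraries held 16.1 to 21.0 M (mega) fragments, of which 46.1% to 46.9% were assigned to an allele, with a median of 210.5 to 277 allelic fragments per ratio-table gene. All ratio-table genes lie before Xist on the X (mm10), between 0.0643 and 97.4 Mb from it. Genes beyond Xist were not allele-informative, since 0.766% to 1.38% of their allelic fragments were assigned to Dom. Embryonic stem cell markers summed to 1590 to 1880 CPM (counts per mega, a gene's fragments relative to the library total) (10 genes, Sox2 listed at 0 in all 4), and those of feeder fibroblasts, primitive endoderm, neural precursors and trophoblast to 552 to 683, 227 to 483, 36.3 to 112 and 29.4 to 43.6 CPM, with Sox1 and Zic1 of the neural list at 0. No member of these 5 lists passed the test between dTAG and ctrl at d1 in edgeR or DESeq2, and 2, 1, 3, 1 and 0 had an unadjusted p under 0.05 in edgeR. The sums of primitive endoderm, neural precursor and feeder fibroblast markers were higher in clone F10 than in F6 with either treatment. Those of embryonic stem cell and trophoblast markers were higher in F6. Single members could differ from their list, as Gata4 of primitive endoderm with 6.21 CPM in dTAG F10 and 6.55 CPM in dTAG F6.

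The engineered genes were measured first. Xist, the silencing RNA itself, stood at 2581 CPM in ctrl F10, 3464 in ctrl F6, 2830 in dTAG F10 and 3221 in dTAG F6, against 67.3 to 83.5 CPM on d0. It was higher with dTAG in F10 and lower in F6, and the log2 fold change of total counts was 0.0091 (SE 0.091, adjusted p = 0.996 in edgeR's quasi-likelihood test). Of the allelic Xist fragments, 0.0545% to 0.0835% were assigned to Cast at d1. Spen ran from 277.3 to 329 CPM, Pcgf3 from 86.0 to 103 CPM and Pcgf5 from 49.1 to 54.1 CPM across the 4 libraries, and none passed the test. The degron acts on protein, so transcript levels do not check the degradation.

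The median allelic ratio was higher with dTAG in both clones. In F10 it was 0.476 in ctrl and 0.508 in dTAG, and in F6 it was 0.483 and 0.512. Both dTAG libraries lay above both ctrl libraries, by 0.0307 on average (0.0325 in F10 and 0.0289 in F6). The exact two-sided permutation test of 2 against 2 libraries gave p = 0.333, the smallest value that this design allows. Before doxycycline the medians were 0.516 and 0.514 in ctrl and 0.514 and 0.523 in dTAG, so the 2 treatments differed by -0.0012 in F10 and 0.0084 in F6. From d0 to d1 the median changed by -0.0400 and -0.0313 in ctrl and by -0.0063 and -0.0108 in dTAG. In bulk libraries a small loss of Dom transcription in every cell cannot be told apart from a large loss in some cells.

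**Figure D1:**
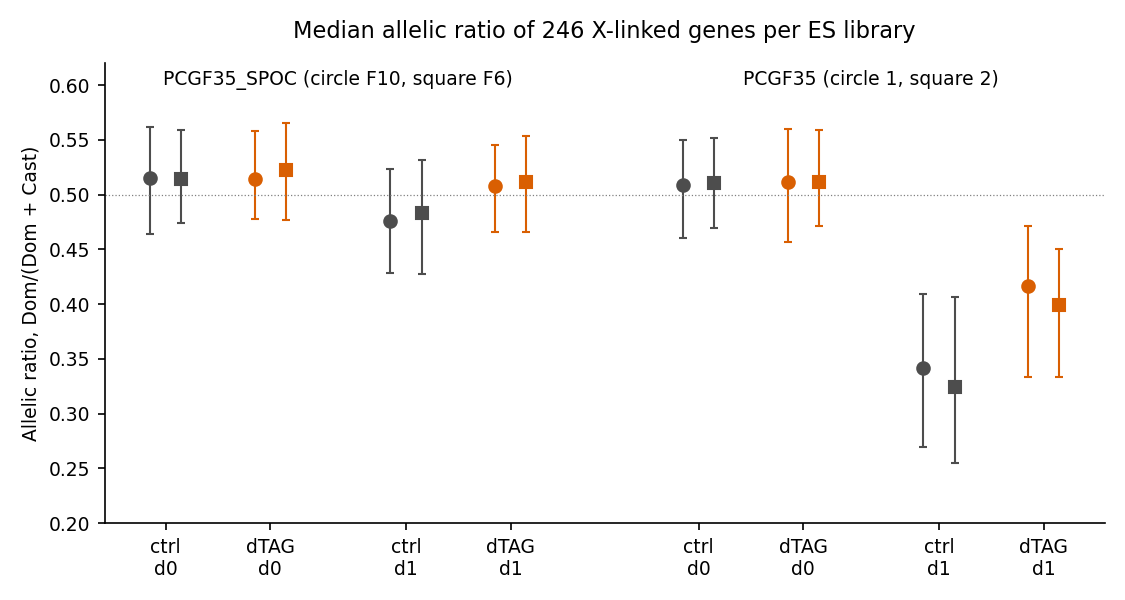
Median allelic ratio of the X-linked ratio-table genes (y axis, Dom/(Dom + Cast)) in each ES library of PCGF35_SPOC and PCGF35, by treatment and day. Points are libraries and bars span the lower to the upper quartile of genes. At d1 the dTAG libraries of PCGF35_SPOC (0.508 and 0.512) lie above the ctrl libraries (0.476 and 0.483), and those of PCGF35 (0.417 and 0.400) above theirs (0.342 and 0.324).

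With all fragments of the ratio-table genes pooled, dTAG again lay above ctrl in each clone. The pooled ratio was 0.484 (95% Wilson interval 0.482 to 0.486) in ctrl F10 and 0.507 (0.504 to 0.509) in dTAG F10, and 0.496 (0.493 to 0.498) in ctrl F6 and 0.512 (0.510 to 0.514) in dTAG F6. These intervals cover counting error alone and leave out the spread between libraries, clones and genes. Fragments carried no molecular identifiers, so duplicate fragments could make the intervals too narrow. Split by allele, the summed Dom level went from 4473 to 4866 CPM in F10 and from 4999 to 5643 CPM in F6, differences of 8.78% and 12.9%. The summed Cast level went from 4768 to 4737 CPM in F10 and from 5085 to 5377 CPM in F6, differences of -0.651% and 5.74%. The Dom level moved more than the Cast level in each clone. At d0 dTAG and ctrl already differed, by 1.81% for Dom and 1.80% for Cast in F10 and by 4.66% and 3.85% in F6.

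More genes had a higher than a lower ratio with dTAG. The ratio was higher with dTAG in both clones for 130 ratio-table genes and lower in both for 26, while at d0 the counts were 67 and 62. At d1 both dTAG libraries exceeded both ctrl libraries for 93 genes and lay below both for 9, a count not taken at d0. Of the 195 genes with at least 50 allelic fragments in each d1 library, 108 were higher in both clones and 19 lower. Without overlap of the treatments these numbers were 77 and 7. In edgeR's quasi-likelihood test on the Dom and Cast counts, with a term for the clone, 17 ratio-table genes changed at an adjusted p under 0.05 (6.91%), all upwards. No fall was called, and 2 falls had an unadjusted p under 0.05, against 0 called and 3 unadjusted in limma on the ratios. At d0 the same fit called 0 genes (0.0%), with 13 at an unadjusted p under 0.05, and limma called 0 with 9 unadjusted. When all 12015 autosomal genes with enough allelic fragments were put through the fit with the X, 6 X-linked genes rose and none fell, 1 autosomal gene rose and 1 fell, the median log2 odds change of autosomes was 0.0013 and that of 282 X-linked genes before Xist was 0.15. Without the clone term, or with limma on the ratios, no ratio-table gene was called at d1. Refits without the ctrl F10, dTAG F10, ctrl F6 or dTAG F6 library called 9, 8, 33 or 3 genes, all rises except 1 fall among the 33.

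**Figure D2:**
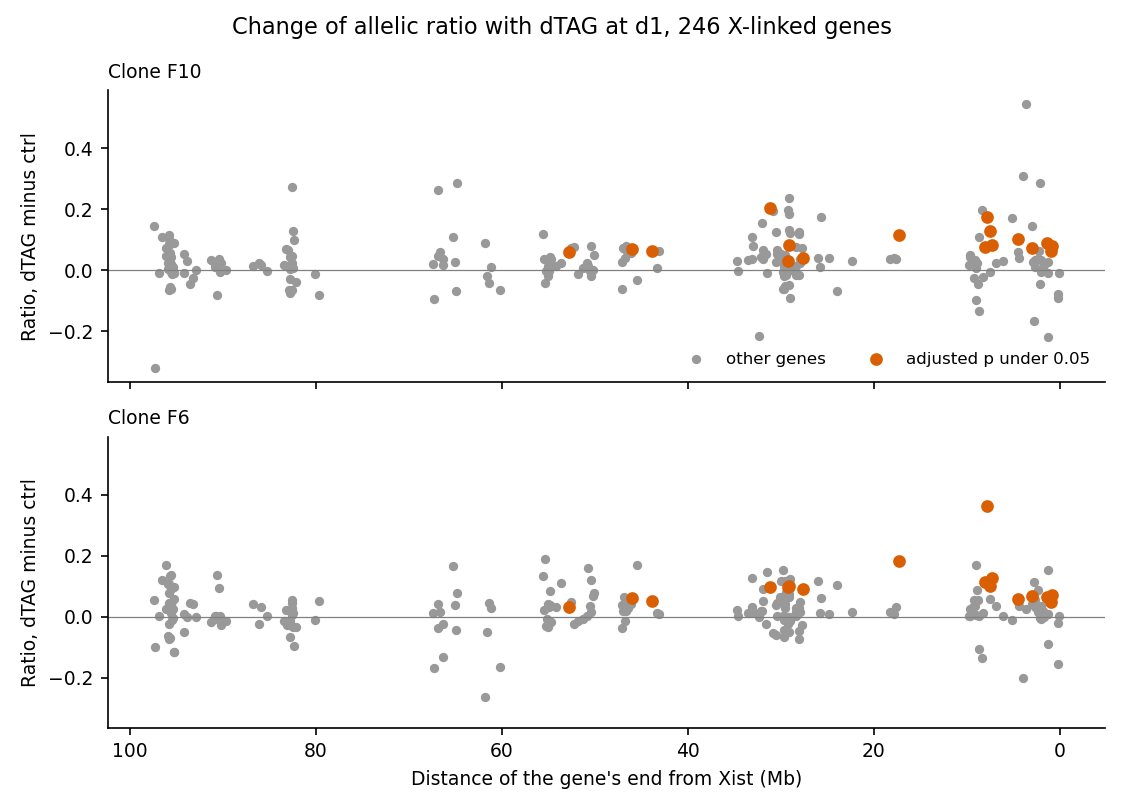
Difference of allelic ratio between dTAG and ctrl at d1 (y axis) for each ratio-table gene by distance from Xist in Mb (x axis, Xist at the right), in clone F10 (top) and F6 (bottom). Orange points are the 17 genes with an adjusted p under 0.05, of which 12 lie in the group of 82 genes nearest to Xist.

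The 17 genes serve different functions. Eda, the TNF-family ligand ectodysplasin A of skin appendage development (mm10 chrX:99975605-100400760), had the smallest p. Its ratio was 0.348 (95% Wilson interval 0.335 to 0.361) in ctrl F10 and 0.423 (0.409 to 0.437) in dTAG F10, and 0.398 (0.385 to 0.411) in ctrl F6 and 0.466 (0.454 to 0.478) in dTAG F6, from 4749 to 6340 allelic fragments. Both dTAG libraries exceeded both ctrl libraries, with a log2 odds change of 0.43 (SE 0.057, adjusted p = 3.74e-11). At d0 all 4 libraries were between 0.468 and 0.494. Firre (mm10 chrX:50555743-50635258), a nuclear long noncoding RNA gene, went from 0.573 and 0.562 to 0.634 and 0.594 (log2 odds change 0.27, SE 0.051, adjusted p = 2.01e-05). Msn (mm10 chrX:96096044-96168553), which encodes moesin, a linker of actin to the membrane, went from 0.447 and 0.427 to 0.530 and 0.554 (log2 odds change 0.61, SE 0.127, adjusted p = 1.69e-04). In each of these genes the clones moved the same way and the treatments did not overlap.

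The RefSeq sequences upstream of these 3 genes, the 3 of smallest p, are shown for their CpG content, a property in which promoters bound by Polycomb complexes are known to stand out. They are the 250 bases before the annotated RefSeq start, 5′ to 3′ on the gene's strand, from GRCm38.p6, with each CpG in capitals. For Firre that start lies 63 bases upstream of the one in the gene coordinates given above. The stretches are chrX:99975356-99975605 on the plus strand for Eda, chrX:50635322-50635571 on the minus strand for Firre and chrX:96095795-96096044 on the plus strand for Msn.
Eda: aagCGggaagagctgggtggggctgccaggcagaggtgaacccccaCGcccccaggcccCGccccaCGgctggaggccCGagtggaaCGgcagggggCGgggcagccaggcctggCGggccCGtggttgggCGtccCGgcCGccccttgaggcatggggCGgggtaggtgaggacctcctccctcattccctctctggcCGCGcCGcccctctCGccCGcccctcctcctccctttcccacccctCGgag
Firre: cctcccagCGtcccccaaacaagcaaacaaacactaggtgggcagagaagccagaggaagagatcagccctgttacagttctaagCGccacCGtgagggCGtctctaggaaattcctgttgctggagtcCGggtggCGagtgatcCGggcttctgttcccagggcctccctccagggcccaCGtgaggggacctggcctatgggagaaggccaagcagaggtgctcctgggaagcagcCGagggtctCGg
Msn: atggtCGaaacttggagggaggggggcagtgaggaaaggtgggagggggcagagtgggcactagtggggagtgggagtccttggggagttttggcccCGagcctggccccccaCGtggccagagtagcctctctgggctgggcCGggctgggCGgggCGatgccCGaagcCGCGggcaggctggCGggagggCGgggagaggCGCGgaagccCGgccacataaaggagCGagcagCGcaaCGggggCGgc
They hold 19, 10 and 18 CpG, against a median of 6 over all 32851 windows of the table, of which 92.1% hold at least one. As many CpG as in Eda occur in 19.7% of windows, as in Firre in 37.8% and as in Msn in 21.7%. In windows that also hold the 50 bases after the start, the 196 ratio-table genes with a window had a median of 18 CpG and the 13 called ones 14, against 7 over all windows. The libraries measured RNA and not the state of these promoters.

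The other called rises ranged widely in size. Nr0b1, a nuclear receptor family corepressor of the pluripotency network, went from 0.339 in F10 and 0.347 in F6 to 0.456 and 0.531 (log2 odds change 0.87, SE 0.247, adjusted p = 0.0132). Gabre, a GABA-A receptor subunit, went from 0.386 and 0.370 to 0.591 and 0.467 (0.84, SE 0.249, adjusted p = 0.0181), a value that was 0.48 and not called without dTAG F10 and 1.3 without dTAG F6. Zc3h12b, a CCCH zinc finger gene, went from 0.459 and 0.421 to 0.590 and 0.521 (0.68, SE 0.164, adjusted p = 0.0017). Amer1, a regulator of WNT signalling, rose on average by 0.095 in ratio. Phka1, a phosphorylase kinase subunit, Nhsl2 and Pls3, an actin bundler, rose on average by 0.075, 0.077 and 0.066, and Gm364 by 0.065. In all of these the lower of the dTAG values exceeded the higher of the ctrl values. Other called genes were Zc4h2, with 34 to 40 fragments per library and ctrl values of 0.475 and 0.294 against 0.650 and 0.658, Flna (the actin crosslinker filamin A), Fgf13 and Hdac8 (a class I histone deacetylase), with mean rises of 0.064, 0.056 and 0.056. Of the 10 genes plotted by library, Eda passed without any 1 of the d1 libraries. Gabre lost its call without ctrl F10, dTAG F10 or ctrl F6. The rest lost theirs without dTAG F6. All of these except Msn also lost it without at least 1 other library, and Amer1 lost it whichever d1 library was left out. Pls3 was at 0.17 in log2 odds without dTAG F6 and 0.60 without dTAG F10, against 0.40 with all, and Gm364 at 0.25 without dTAG F6 and 0.26 without ctrl F10, against 0.40. Gabre, Pls3 and Gm364 also missed the threshold when only genes with at least 50 allelic fragments entered the test. The called genes were deeper than the others, with a median of 583.5 allelic fragments against 231.5.

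**Figure D3:**
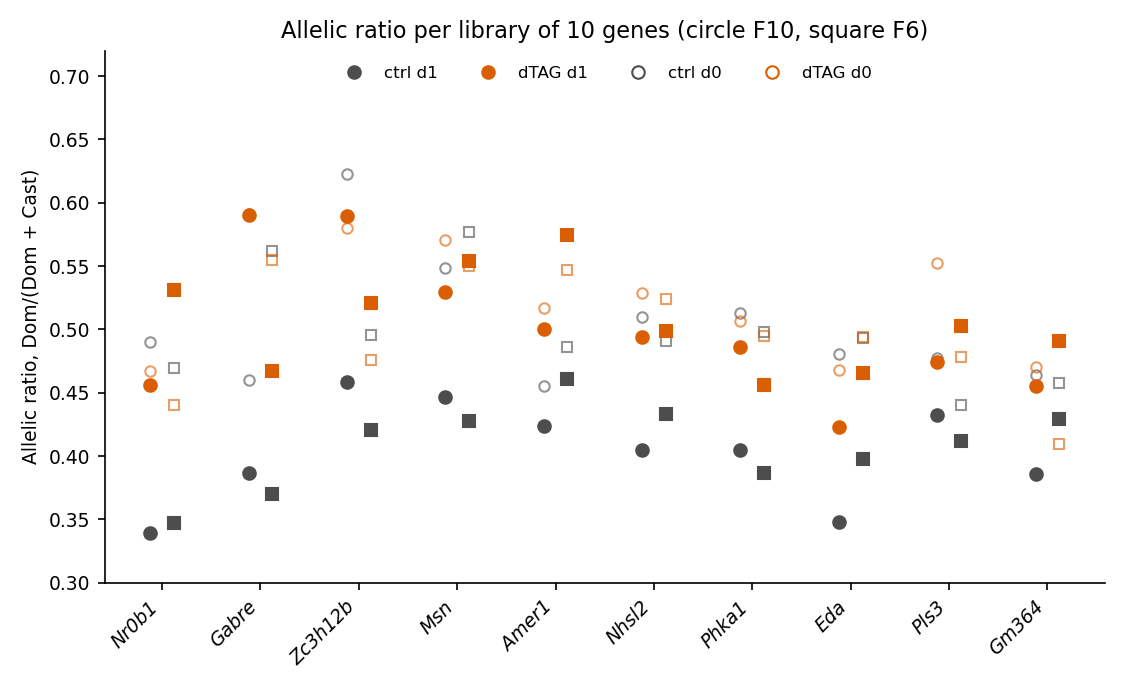
Allelic ratio (y axis) in each library of 10 named genes (x axis), with d1 filled and d0 open, ctrl in grey and dTAG in orange. For each gene both filled orange points lie above both filled grey points, as for Eda with 0.423 and 0.466 against 0.348 and 0.398.

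More ratios fell on Xist induction in ctrl than in dTAG. From d0 to d1, 38 ratio-table genes (15.4%) fell in ctrl and none rose, and 2 (0.813%) fell in dTAG, Eda and Chic1, with log2 odds changes of -0.21 (SE 0.055, adjusted p = 0.0171) and -0.44 (SE 0.108, adjusted p = 0.0155). Eda in ctrl changed by -0.67 (SE 0.057). These comparisons share their d1 or d0 libraries with those above, and the difference of effects was therefore tested by itself. The dTAG effect was larger at d1 than at d0 for 6 genes (2.44%) and smaller for none: Eda, Firre, Zc3h12b, Flna, Msn and Hdac8, by 0.28 to 0.85 in log2 odds. Refits for this difference called 0 without d0 ctrl F10, d0 dTAG F10 or d0 dTAG F6, 1 without d1 dTAG F10, 2 without d0 ctrl F6 or d1 dTAG F6, and 11 without d1 ctrl F6. Refits for ctrl called 8 without d0 ctrl F10, 12 without d1 ctrl F10 and 16 without d0 ctrl F6. Refits without any 1 of the 4 dTAG libraries called 0 in dTAG.

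The difference between dTAG and ctrl was ordered by 4 properties of the genes. Its medians were 0.0356 in F10 and 0.0282 in F6 for the 82 genes nearest to Xist (up to 29.2 Mb), 0.0293 and 0.0313 for the middle group, and 0.0171 and 0.0099 for the farthest (from 61.8 Mb), which held 12, 5 and 0 of the 17 calls. Allelic depth was also lowest in the farthest group, at a median of 181 fragments against 295 in the nearest, and its part in the counts was not tested. Ordered by the fall of ratio in untreated PCGF35 cells, which are other libraries, the groups of smallest, middle and largest fall differed by medians of 0.0191, 0.0279 and 0.0371 in F10 and 0.0099, 0.0217 and 0.0366 in F6, with 0, 4 and 13 calls. Genes in the lowest group of d0 output per kilobase differed by medians of 0.0384 and 0.0230, those in the middle by 0.0360 and 0.0275 and those in the highest by 0.0109 and 0.0164, with 9, 4 and 4 calls, whereas by d0 output not divided by length the groups held 2, 8 and 7 calls. By promoter CpG, known for 196 genes, the group with fewest differed by medians of 0.0397 and 0.0294, the middle one by 0.0195 and 0.0188 and that with most by 0.0182 and 0.0155. These orderings are descriptions, each taken by itself.

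Gene-wise sizes were weakly related between clones. Over all ratio-table genes the difference in F10 and that in F6 correlated with Pearson's r = 0.054. Across the 195 genes with at least 50 allelic fragments in each d1 library, r was 0.149, against 0.0035 and -0.0009 for the same 2 sets at d0, as a description over genes that share 4 libraries.

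PCGF35 cells, with the same degrons and an intact SPOC domain, were the reference for the SPOC mutation. Their d1 medians were 0.342 and 0.324 in ctrl and 0.417 and 0.400 in dTAG, differences of 0.0745 and 0.0751. In a fit over the 16 ES libraries of both lines, 85 genes (34.6%) rose with dTAG in PCGF35, and the dTAG effect at d1 was larger there than in PCGF35_SPOC for 19 genes (7.72%) and smaller for none. Of the 17 genes above, 12 (70.6%, or 14.1% of the 85) were among those that rose in PCGF35, and none was among the 19, a contrast from which the PCGF35_SPOC effect is subtracted. Gpc3, a glypican, and Usp9x, a deubiquitinase, are 2 of the 19 and were picked after their values were seen. Gpc3 stood at 0.502 and 0.527 in ctrl and 0.527 and 0.530 in dTAG of PCGF35_SPOC, against 0.242 and 0.283 in ctrl and 0.340 and 0.376 in dTAG of PCGF35 (difference of effects 0.57 in log2 odds, SE 0.080, adjusted p = 5.57e-10). Usp9x was between 0.528 and 0.534 in all 4 PCGF35_SPOC libraries, whereas in PCGF35 it was 0.388 and 0.379 in ctrl and 0.460 and 0.449 in dTAG. The PCGF35 dTAG d1 library of replicate 1 had 20.6% of its allelic Xist fragments on Cast, where the other d1 libraries of both lines had at most 0.117%. Without it 14 genes differed between the lines, and without PCGF35 dTAG replicate 2, or without either PCGF35_SPOC dTAG library, 12. For side-by-side reading only, the 3 SPOC d1 libraries, with intact and untagged PCGF3/5, had medians of 0.433, 0.446 and 0.446. The 2 DelPID_SPOC d1 libraries, whose Xist lacks the Polycomb-recruiting region, had 0.514 and 0.513. The paper describes 1 of its DelPID_SPOC clones, named G in the legend, as tetraploid.

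Total counts need no allele information and cover the X on both sides of Xist. Of 15444 genes tested, 76 (0.492%) rose and 56 (0.363%) fell with dTAG at d1 in edgeR's quasi-likelihood test with a clone term. X-linked genes made up 43 of the 76 rises and none of the 56 falls, with 596 tested, so that 7.21% of tested X-linked genes rose against 0.222% of 14845 autosomal genes. Among X-linked genes 5 falls had an unadjusted p under 0.05, and DESeq2 called 0 with 2 unadjusted. Of the 43 rises, 25 lie before Xist and 18 beyond it. The median log2 fold change was 0.087 for 366 X-linked genes before Xist, 0.11 for 230 beyond it and -0.0066 for autosomes, and 75.8% of X-linked genes had a positive sign against 47.4% of autosomal ones. Within clones the X-linked median was 0.11 in F10 and 0.085 in F6, against -0.0029 and -0.0094 for autosomes. At d0 the X-linked median was 0.033, with 3 rises and 1 fall. No autosome had a median above 0.012 at d1, where the X stood at 0.097. DESeq2 called 38 genes at d1, of which 14 were X-linked rises, and without the clone term none was called. Refits without dTAG F10, ctrl F6 or dTAG F6 called 55, 57 or 69 genes, of which 23, 16 or 16 were X-linked rises.

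**Figure D4:**
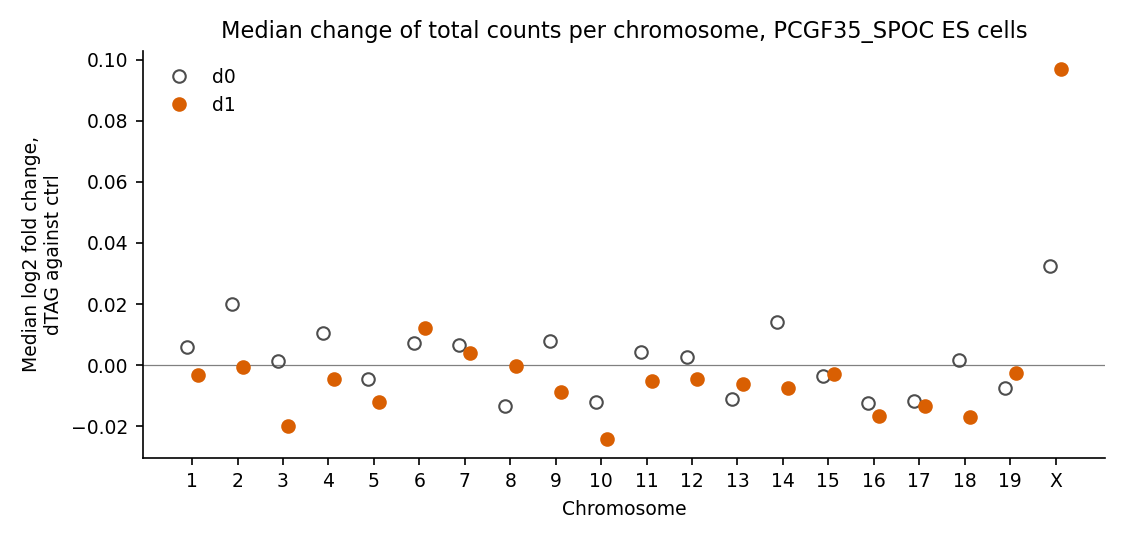
Median log2 fold change of total counts, dTAG against ctrl (y axis), over the genes of each chromosome (x axis), at d1 (filled) and d0 (open). The X lies at 0.097 at d1 and 0.033 at d0, and the autosomes lie between -0.024 and 0.020.

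Several rises lay beyond Xist, where alleles could not be read. Nhs, an actin-regulating gene, stood at 160.2 and 106.2 CPM in ctrl and 190.2 and 139.1 CPM in dTAG (log2 fold change 0.31, SE 0.053, adjusted p = 2.28e-04). It was higher with dTAG within each clone, while at d0 the clones stood at 238 and 161 CPM in ctrl and 220.1 and 157 CPM in dTAG. It was singled out by the test of the difference between days, after its values were seen. Luzp4, the largest rise among genes of at least 5 CPM, went from 1.95 and 6.04 to 3.79 and 10.8 CPM (0.88, SE 0.174, adjusted p = 0.0022), a rise within each clone although the clones overlap. Of the X-linked rises before Xist, Cd99l2 went from 28.5 and 31.9 to 39.7 and 47.2 CPM (0.52, SE 0.077) and Gabra3, a GABA-A receptor subunit, from 14.1 and 2.31 to 22.2 and 3.11 CPM (0.60, SE 0.132). Glod5, Gm6938 and Atp2b3, a plasma membrane calcium pump, rose by 0.63, 0.59 and 0.58. Eda rose in total too, from 557 and 641 to 674 and 817 CPM (0.31, SE 0.053). Of the 17 genes called by allelic ratio, 7 (41.2%, or 9.21% of the rises) were also called in total counts, among them Eda, Hdac8, Msn, Nhsl2, Phka1 and Pls3.

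Autosomal genes changed in both directions, and part of the falls were also called before doxycycline. The largest named autosomal rises were Slc22a18, an imprinted transporter gene (0.86, SE 0.166), Itih5 (0.57), Phactr3 (0.53), Cgnl1, a junction protein (0.52), and Dagla, which makes the endocannabinoid 2-arachidonoylglycerol (0.50). Npr3, the natriuretic peptide clearance receptor, fell most among genes of at least 5 CPM, from 12.7 and 2.58 CPM to 4.41 and 1.24 CPM (log2 fold change -1.42, SE 0.200, adjusted p = 2.88e-05). Dach1 and Nfia, both transcription factors, changed by -0.68 and -0.52, Efna5, an ephrin ligand, by -0.56, Dll1, a Notch ligand, by -0.60, and Nrg3, a neuregulin, by -0.50. Nol4, Bahcc1, Kcnh7, Fam13a, Krt18 and Adamts19 changed by -0.50 to -0.83. DESeq2 did not call 15 of the named rises and falls of total counts. Among them were Luzp4 (0.89) and Npr3 (-1.36), which received no adjusted p there. Of the named rises and falls, Cd99l2, Cgnl1, Efna5 and Nfia passed without any 1 of the d1 libraries, and each of the others printed here lost its call without at least 1, Npr3 without dTAG F10 (-1.0). Krt18 was at -0.25 without ctrl F10 and -0.34 without dTAG F10, Nrg3 at -0.31 without dTAG F10 and Dach1 at -1.02 without dTAG F10. Of the 56 falls, 26 were also called at d0 (46.4%, and 41.9% of the 62 falls there), among them Npr3, Dach1, Nfia, Efna5 and Nrg3, and their median was -0.33 at d1 and -0.27 at d0 over the 56. At d0 18 genes (0.117%) rose and 62 (0.401%) fell, and 9 of the rises were shared. The 43 X-linked rises had a median of 0.31 at d1 and 0.075 at d0. The dTAG effect itself differed between the days for 4 genes (0.0259%), all more positive at d1, among them the X-linked Nhs, and Cntnap5b and Pnrc1, which fell with dTAG at d0. Refits without any 1 d0 library called 38 to 44 genes at d0, against 80, and for the difference between days called 1 without d0 ctrl F10 or d0 dTAG F10, 2 without d1 dTAG F6 and 8 without d1 ctrl F6.

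**Figure D5:**
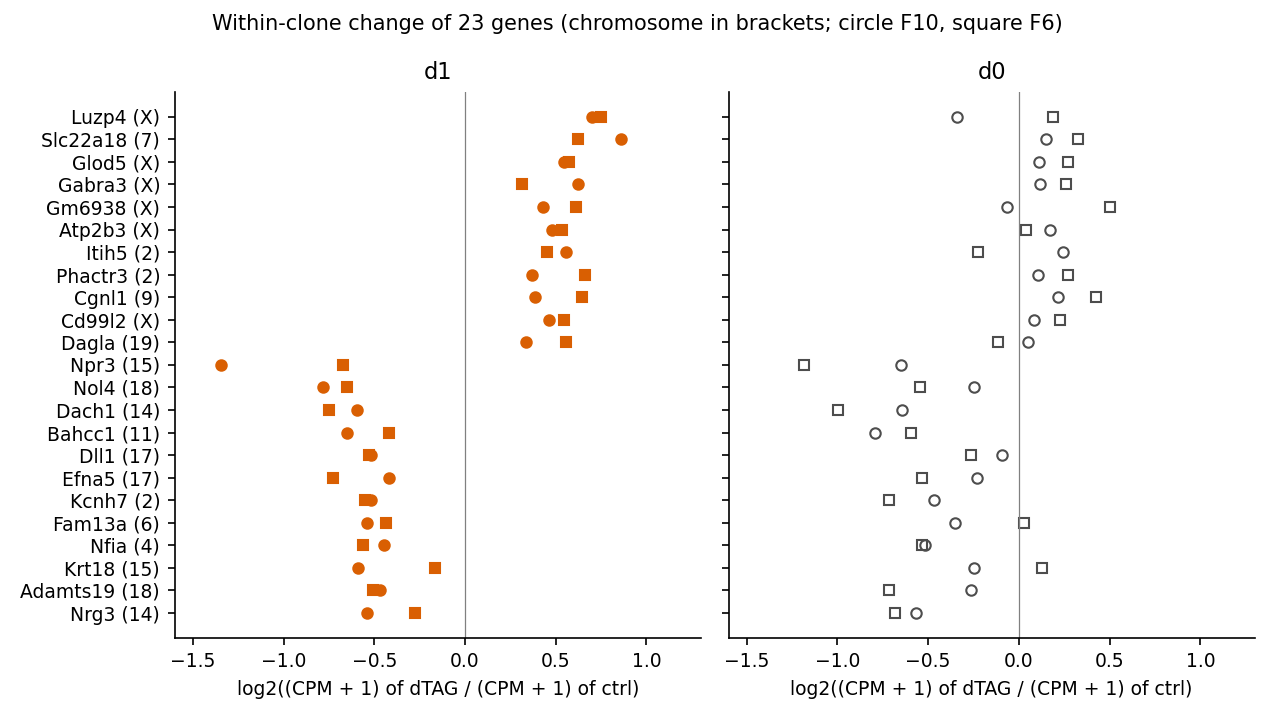
Within-clone log2 ratio of CPM + 1, dTAG over ctrl (x axis), of 11 named rises and 12 named falls of total counts (y axis), at d1 (left) and d0 (right). At d1 each gene has both clones on 1 side of 0, as the rule that named the genes required. No such rule applied at d0. There falls such as Npr3 and Dach1 keep their side, while Luzp4, Gm6938, Itih5, Dagla, Fam13a and Krt18 have clones on both sides. Circles are F10 and squares F6.

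Genes of the silencing pathways themselves were counted against a background in which 0.492% of all genes rose and 0.363% fell. Among 11 of 13 core and canonical PRC1 genes tested none was called (median log2 fold change -0.0037), nor among 21 genes of variant PRC1 (-0.010), 11 of 13 of PRC2 (-0.0055), 10 of the SPEN corepressor (0.013) and 19 of 20 Xist-binding and silencing factors (-0.0033), against a median of -0.0039 over all genes. Unadjusted p-values under 0.05 numbered 2, 3, 0, 1 and 0 in these lists, and DESeq2 called 0 in each. Of 10 genes of the mouse X known to escape inactivation, Shroom4 alone rose (0.20, SE 0.050, adjusted p = 0.0263), where 7.21% of all tested X-linked genes rose, and Car5b (0.48), Eif2s3x (-0.012) and Mid1 (-0.012) did not pass. Of 25 tested genes listed as X-linked chromatin regulators, 3 rose, where 7.21% of all tested X-linked genes did. They were Hdac8 (0.24), Smc1a, a cohesin subunit (0.21), and Sms (0.27), which also rose at d0. Sms encodes an enzyme, spermine synthase, and stood in the list although it is not a chromatin regulator. Bcorl1 (-0.11) and Cul4b (-0.083) were the lowest and did not pass, and the list's median was 0.041. DESeq2 called 1 gene of this list and 0 of the escape genes, so Shroom4 was not called there. The calls of Shroom4, Hdac8, Smc1a and Sms were each lost without ctrl F6 and without dTAG F6. Of 6 tested genes of the X-inactivation centre none was called, with 1 unadjusted and 0 in DESeq2.

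Lists of Polycomb target and cell state genes held no call, which at the same background of 0.492% and 0.363% is no result about these genes. Of 39 Hox genes 3 were deep enough to test and 11 had no fragment in any of the 4 libraries, and none was called. Of 47 bivalent lineage regulators 23 were tested, with 6 at an unadjusted p under 0.05 and a median of 0.075, Wnt5a (2.42) and Pax7 (0.59) being highest and Sox17 (-1.57) and Tbx5 (-0.68) lowest, each under 1.1 CPM. Naive pluripotency (15 tested), core and formative pluripotency (15), ERK output (14), germline (17), ATF4 stress (19) and p53 target genes (12) had medians of 0.077, 0.041, 0.056, 0.080, -0.087 and -0.11 with no call, and 3, 3, 1, 3, 1 and 4 unadjusted. DESeq2 called none in any of these lists.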

How the data were processed

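As the labels and published methods state, the authors removed ribosomal reads of the ChrRNA-seq libraries with Bowtie2 2.3.2 and aligned the rest to N-masked mm10 with STAR 2.4.2a. SNPsplit then assigned alleles, and featureCounts gave strand-specific fragments for each gene. The deposited counts (all, Cast and Dom fragments of 22556 genes) are raw. The deposited allelic ratio, a fraction the authors computed for X-linked genes before Xist, was recomputed to within 5.6e-16.

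Allelic counts were fitted with edgeR 4.0.16 (R 4.3.3), with a term per library and Dom effects per group and per clone, over the 8 ES libraries of the clones (16 with PCGF35). Total counts were fitted after filterByExpr and TMM normalization, with group and clone. The Benjamini-Hochberg threshold was 0.05. limma 3.58.1 and DESeq2 1.42.0 were alternatives. In the allelic fit every gene took the common dispersion trend, as the prior degrees of freedom were infinite. Both fits were tested on simulated data with noise at a fixed spread and the clone means kept. That run does not bear on how the calls depend on the clone term. Clones pair the libraries: the F10 minus F6 differences correlated between groups by 0.907 to 0.925 over 14161 genes and by 0.178 to 0.320 for ratios. Within groups the clones differed by a chi-square per degree of freedom of 60.9 to 68.3. Wilson intervals are at 95%.

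Members and gene lists were chosen with earlier results of these data known. Named are the engineered genes, up to 12 ratio rises and 6 falls with an adjusted p under 0.05, at least 50 allelic fragments per library and 1 direction in both clones, up to 12 rises and 12 falls of total counts with at least 5 CPM, and of each list the called members and the extremes, the latter given here for 3 lists. Some items that these rules select are not reported here.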

Additional observations from a re-analysis of the deposited data

Results flagged for a closer look

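The dTAG effect on the allelic ratio differed between d1 and d0 by a test of the difference itself in 6 genes: by 0.46 in log2 odds for Eda, 0.28 for Firre, 0.85 for Zc3h12b, 0.38 for Flna, 0.62 for Msn and 0.47 for Hdac8.

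In total counts the same test singled out Cntnap5b (2.56 in log2), Pnrc1 (0.63) and Nhs (0.39). Cntnap5b stood at 1.09 and 0.933 CPM in ctrl and 4.78 and 1.36 CPM in dTAG at d1, so its rise at d1 rests mainly on the F10 dTAG library. At d0 it stood at 7.30 and 2.78 CPM in ctrl and 3.03 and 1.96 CPM in dTAG. From d0 to d1 it changed by -2.31 in log2 in ctrl and by 0.25 in dTAG, so the difference between days lies mostly in ctrl.

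The dTAG effect at d1 differed between PCGF35 and PCGF35_SPOC for 19 genes.

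Xist fragments of the Cast allele stood out in the PCGF35 dTAG libraries of replicate 1, at 37.6% (95% Wilson interval 34.3% to 40.9%) in dTAG d0 and 20.6% (20.0% to 21.2%) in dTAG d1. The PCGF35 ctrl d0 library of replicate 1 had 5.11% (3.43% to 7.55%), and the SPOC d0 libraries C11, D9 and H1 had 13.5%, 45.5% and 20.4%. The 4 d1 libraries of PCGF35_SPOC had at most 0.0835%.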

How the results depend on the processing

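Allelic calls at d1 (17) became 0 without the replicate block (the clone term), 0 in limma, 0 with all 58 libraries and no block together, 6 in the whole-genome fit and 3 to 33 with single libraries left out. Without the replicate block and in limma, ctrl falls (38) became 10 and 0, dTAG falls (2) 0 and 0, the day difference (6) 0 and 0, and the line difference (19) 12 and 0. With single libraries left out these 4 ran from 8 to 36, 0 to 0, 0 to 11 and 12 to 25. Total-count calls without the block and in DESeq2 were 0 and 38 at d1 (132), 0 and 26 at d0 (80), 0 and 0 for the day difference (4), and 0 and 14 for X-linked rises (43). With all 58 libraries and no block together, d1 calls and X-linked rises were 0 and 0, as without the block alone. Leaving out single libraries gave 55 to 126, 38 to 44, 1 to 8 and 16 to 30. The X median minus the autosome median (0.104) ran from 0.0943 to 0.126. The median ratio difference (0.0307) was 0.0195 for pooled fragments, 0.0232 after subtracting d0 and 0.0262 as a replicate-block mean of gene-wise differences. Signs turned, in genes not called, for Xist (-0.146 to 0.181 with single libraries left out, likewise below), Spen (-0.148 to 0.0767), Pcgf3 (-0.0609 to 0.0219), Pcgf5 (-0.0544 to 0.0551, and 0.00087 with all 58 and no block), Pax7 (-0.0702 to 2.11), Eif2s3x (-0.0805 to 0.0606) and Mid1 (-0.0664 to 0.053). No called gene that is named reversed. The cause of these changes was not tested. Depth limits single genes: the ratio genes had a median of 210.5 to 277 allelic fragments.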

Other observations

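Rapgef4, a cAMP-activated exchange factor gene on chromosome 2, stood at 11.3 and 15.0 CPM in ctrl and 14.1 and 14.2 CPM in dTAG at d0, and at 111.9 and 67.3 CPM in ctrl and 110 and 67.0 CPM in dTAG at d1. The log2 fold change from d0 to d1 was 2.71 in ctrl (SE 0.35, adjusted p = 0.081 in edgeR) and 2.61 in dTAG (SE 0.35, adjusted p = 0.184), and neither passed the test. It was picked after its values were seen.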
